A study of Mus musculus with 6 samples.

Results

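The probes described here lie in 3 windows of the mouse genome that hold clusters of KRAB zinc finger genes. The windows were chosen with earlier results of these data known. Their probes were then taken by position, as every non-control probe whose mm9 coordinate starts within chr4:145000000-147400000, chr2:175200000-177900000 or chr13:67000000-68000000. There were 640 such probes among 174638, with 204 in the chromosome 4 window, 188 in the chromosome 2 window and 248 in the chromosome 13 window. The series profiled DNA methylation in pancreatic tissue of mouse offspring aged 12 weeks by methylated DNA immunoprecipitation on 2-colour tiling arrays (MeDIP-chip). There were 3 arrays of offspring of dams with maternal glucose intolerance and 3 of offspring of dams with maternal normal glucose tolerance, and the series text calls the first dams hyperglycemic. The labels give no strain, sex or genotype, and do not state how the intolerance was brought about or if each sample stems from its own animal, dam or litter. The p-values therefore reflect only sample-to-sample spread, part of which may be technical. All of the tissue was bulk pancreas, so cell types were not resolved, and an array of genomic DNA holds no marker transcripts against which the tissue label could be checked.

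KRAB zinc finger proteins form a large family of DNA-binding repressors. Each carries a row of zinc fingers that reads a DNA sequence and a KRAB domain that recruits the corepressor TRIM28, which brings repressive chromatin to the bound site, and many of them bind transposable elements. Their genes arose by repeated tandem duplication and sit in clusters, where young neighbours can be nearly identical. In MeDIP an antibody against 5-methylcytosine pulls down methylated fragments, and each array compares them (Cy5) with untreated input DNA (Cy3) at every probe. A higher ratio means more pulled-down DNA for the same input signal. It is not a percentage of methylation, since fragments with few CpG sites are pulled down poorly even when methylated, and a probe whose sequence occurs in many places collects signal from all of them.

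How far the genes of these clusters resemble each other is seen in their promoters. No probe could be assigned to a gene, because an mm9 annotation was not used here, so the following sequences show the gene neighbourhood and not the probes. In the RefSeq tables (GRCm38.p6) the zinc finger gene stretch of chromosome 4 runs from Zfp990 to Zfp933 and holds 18 genes, that of chromosome 2 runs from Gm14444 to Zfp931 and holds 32, and that of chromosome 13 runs from Zfp712 to Zfp273 and holds 25. These stretches were set by gene order and not by converted coordinates, so their ends need not be those of the windows. The 250 bases before at least 1 start were available for 14, 31 and 22 of the genes. An exact run of 45 bases, read along each gene's own strand, was shared between any listed start and that of another gene by 12 of 14 on chromosome 4, 27 of 31 on chromosome 2 and 7 of 22 on chromosome 13, against 8.68% of all 27025 genes in the table. At the first start listed, the median number of CpG sites per 250 bases was 2.5, 3.0 and 5.5 in the 3 stretches, against 6.0 over the whole table. A pair from each stretch is printed below, with every CpG in capitals, to show a near-copy on chromosomes 2 and 4 and an unlike pair on chromosome 13. Zfp967 (chr2:176520754-176521003, plus strand) and Zfp970 (chr2:177464492-177464741, plus strand) share an unbroken run of 227 bases, offset by a few bases.
Zfp967: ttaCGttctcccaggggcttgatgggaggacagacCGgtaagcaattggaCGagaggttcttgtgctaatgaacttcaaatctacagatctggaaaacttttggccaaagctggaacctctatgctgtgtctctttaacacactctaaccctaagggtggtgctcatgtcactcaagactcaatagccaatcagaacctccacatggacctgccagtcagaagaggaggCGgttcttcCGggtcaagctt
Zfp970: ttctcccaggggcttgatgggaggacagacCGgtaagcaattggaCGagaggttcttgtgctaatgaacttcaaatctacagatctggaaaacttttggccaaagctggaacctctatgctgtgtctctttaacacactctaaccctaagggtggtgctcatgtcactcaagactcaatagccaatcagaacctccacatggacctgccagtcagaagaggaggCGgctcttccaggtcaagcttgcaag
Zfp600 (chr4:146156577-146156826, plus strand) and Rex2 (chr4:147021600-147021849, plus strand) are the same at 98.4% of positions and share a run of 235 bases, with 2 CpG sites in each.
Zfp600: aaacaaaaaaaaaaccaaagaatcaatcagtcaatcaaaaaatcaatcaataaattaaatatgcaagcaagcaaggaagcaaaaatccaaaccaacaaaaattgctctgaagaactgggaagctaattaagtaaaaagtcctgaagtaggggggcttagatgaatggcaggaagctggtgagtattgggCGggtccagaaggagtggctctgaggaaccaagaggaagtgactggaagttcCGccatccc
Rex2: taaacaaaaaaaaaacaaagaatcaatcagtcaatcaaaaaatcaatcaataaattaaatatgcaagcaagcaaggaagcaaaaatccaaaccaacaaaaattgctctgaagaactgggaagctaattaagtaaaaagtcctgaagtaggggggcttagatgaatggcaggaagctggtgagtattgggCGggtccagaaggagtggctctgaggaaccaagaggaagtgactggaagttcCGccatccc
Rsl1, which represses sex-limited genes of the liver (chr13:67172932-67173181, plus strand), and Zfp712 (chr13:67061171-67061420, minus strand) share no run longer than 8 bases and hold 4 and 13 CpG sites. Zfp712 has the highest CpG count of its stretch, and Rsl1 is among the 7 genes there that share a 45-base run with another gene.
Rsl1: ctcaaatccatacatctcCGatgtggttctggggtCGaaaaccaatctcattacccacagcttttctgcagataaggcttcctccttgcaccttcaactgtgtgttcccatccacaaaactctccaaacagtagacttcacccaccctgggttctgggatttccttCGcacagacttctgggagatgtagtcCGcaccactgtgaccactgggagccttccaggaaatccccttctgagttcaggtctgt
Zfp712: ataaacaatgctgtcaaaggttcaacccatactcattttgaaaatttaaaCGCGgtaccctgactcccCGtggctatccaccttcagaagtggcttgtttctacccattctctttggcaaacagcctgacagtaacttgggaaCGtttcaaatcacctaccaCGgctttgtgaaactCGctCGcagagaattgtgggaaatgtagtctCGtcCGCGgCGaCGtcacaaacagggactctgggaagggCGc
These coordinates are of GRCm38.p6 and cannot be set against the mm9 probe positions below.

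On the arrays the windows on chromosomes 4 and 2 stood far below the rest of the autosomes in MeDIP/input ratio, and the window on chromosome 13 stood slightly below. The level of a window is the median log2 ratio of its probes minus the median of the 166477 autosomal probes outside the windows, taken on each array. For chromosome 4 replicates 1, 2 and 3 of the glucose intolerance group read -2.07, -1.09 and -1.88, and those of the normal tolerance group -2.71, -2.03 and -2.40. For chromosome 2 they read -2.30, -0.95 and -1.92, and -3.14, -1.89 and -2.01, in the same order. For chromosome 13 they read -0.62, -0.31 and -0.26, and -0.50, -0.24 and -0.14. All 18 values were below 0. Averaged over the 6 arrays, the chromosome 4 window was 4.08-fold lower and the chromosome 2 window 4.10-fold lower than the other autosomal probes. The windows were chosen with earlier results of these data known and probes differ in sequence, so these levels are a description without a test. Probes within 2 Mb on either side of the windows on chromosomes 4 and 2 lay close to the rest of the autosomes, between -0.04 and -0.14 and between -0.03 and -0.22 over the 6 arrays.

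The size of the depletion depended on how background was removed, though its direction did not. With a normexp background model on the unsubtracted spot signals, the chromosome 4 level was -0.69 in the glucose intolerance group and -1.32 in the normal tolerance group, and the chromosome 2 level was -0.67 and -1.13. In the authors' deposited table it was -1.07 and -1.73 for chromosome 4. Part of the MeDIP spots of these windows were near the detection limit, to a degree that varied by array. On chromosome 2, between 60.1% and 89.9% of MeDIP spots were well above background by the scanner software's own flag, while for input it was 91.0% or more. On the other autosomes 76.2% to 83.5% of MeDIP spots were. On replicate 2 of the glucose intolerance and normal tolerance groups the chromosome 2 share (89.9% and 81.4%) was above that of the other autosomes (83.5% and 78.6%). On the remaining arrays it was below. Where the MeDIP spot had little signal over background, how low the ratio was is poorly bounded.

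The 2 channels contributed differently. The input signal of the chromosome 4 window was above the other autosomes by 1.57, 1.46 and 1.24 log2 units on the glucose intolerance arrays and by 1.76, 1.94 and 1.99 on the normal tolerance arrays, 3.16-fold on average. On chromosome 2 it was above by 1.12, 1.37 and 0.99, and by 1.64, 1.20 and 1.11, or 2.36-fold. On chromosome 13 it was below on all 6 arrays, by 0.05 to 0.36. Input DNA is not immunoprecipitated. What makes the input of these windows bright was not tested. MeDIP signal on chromosome 4 went either way, at -0.40, 0.62 and -0.31 on the glucose intolerance arrays and -0.66, 0.27 and -0.83 on the normal tolerance arrays. On chromosome 2 it was -1.16, 0.40 and -1.14, and -1.09, -0.51 and -1.12. In both windows replicate 2 of the glucose intolerance group had the highest MeDIP level and the highest ratio of the 6 arrays.

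**Figure D1:**
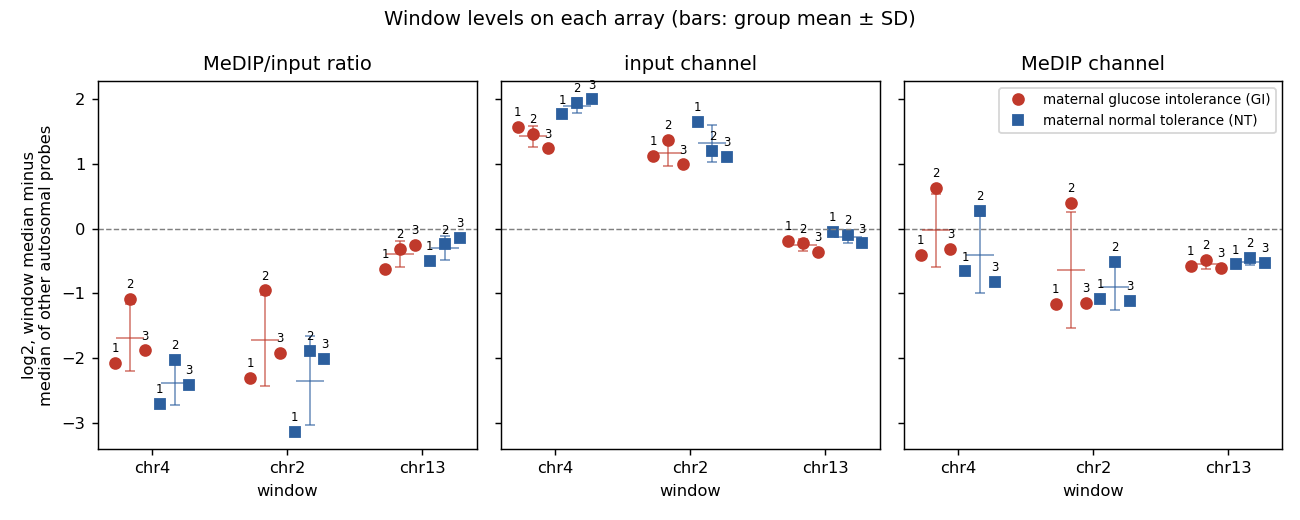
Median log2 level of each window minus that of the other autosomal probes (y axis) for the MeDIP/input ratio, the input channel and the MeDIP channel; each point is an array numbered by replicate, circles are maternal glucose intolerance, squares maternal normal tolerance, and bars are group means ± SD (n = 3). The ratio is lowest on chromosomes 4 and 2, where the input is 3.16-fold and 2.36-fold above the other autosomes.

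At the same input signal the other autosomes were not as low as the windows on chromosomes 4 and 2. Across all other autosomal probes with a mean input more than 3 log2 units above the array median, the median ratio was -0.54 ± 0.18 (SD, n = 6 arrays). In the chromosome 4 window the 62 probes as bright as that had a median of -3.73 ± 1.17, and in the chromosome 2 window 36 such probes had -2.71 ± 0.63. The 18 of chromosome 13 had -0.56 ± 0.23, the level of the other autosomes at that input. In every lower input group chromosome 13 lay below the other autosomes in the mean of 6 arrays. At an input of 2 to 3 its 16 probes had -0.98 ± 0.25, against -0.13 ± 0.13 elsewhere. Its 53 probes at 0 to 1 had -0.30 ± 0.21, against 0.22 ± 0.05. In the mean of 6 arrays the chromosome 2 window was low at every input level. Under -1 its 12 probes had -2.16 ± 1.57, but on glucose intolerance replicate 2 they read -0.12, against -0.25 elsewhere. At an input of 0 to 1 its 45 probes had -2.09 ± 0.89, against 0.22 ± 0.05 elsewhere. Chromosome 4 differed, with -0.86 ± 0.31 for its 34 probes at that input. Its depletion was deepest in its brightest probes.

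**Figure D2:**
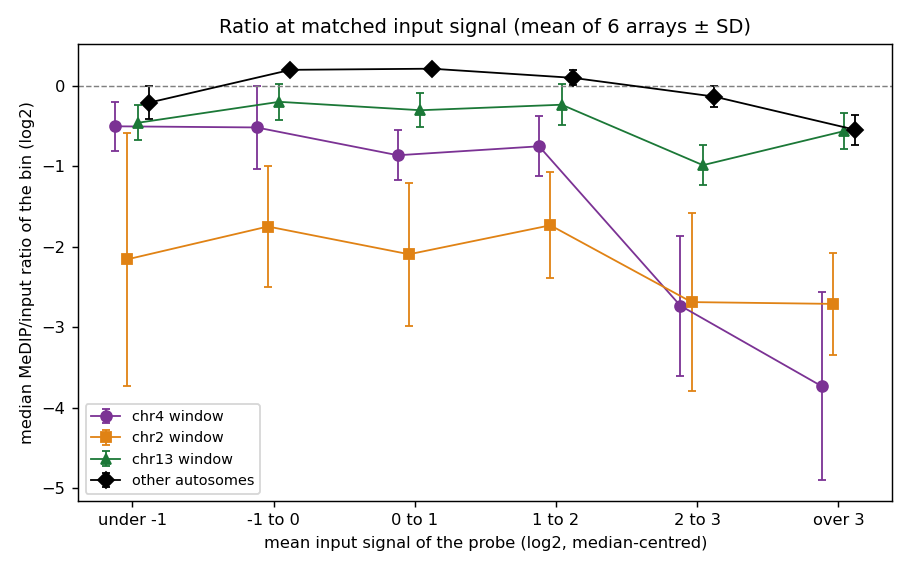
Median MeDIP/input ratio (y axis, log2) of probes grouped by mean input signal (x axis, log2, centred on the array median), for the 3 windows and all other autosomal probes; points are means of 6 arrays and bars ± SD. Over an input of 3, the chromosome 4 and chromosome 2 windows lie at -3.73 and -2.71 and the other autosomes at -0.54.

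The windows were not evenly low along their length. Probes on this array stand in short tiles, here taken as runs of probes with starts at most 2000 bp apart, and the windows held 29 tiles on chromosome 4, 28 on chromosome 2 and 32 on chromosome 13. The mean ratio over 6 arrays was below -1 in 18 of 29 tiles on chromosome 4, 26 of 28 on chromosome 2 and 8 of 32 on chromosome 13, against 7.78% of 20585 other autosomal tiles of at least 4 probes. Below -2 there were 17, 21 and 0, against 1.21%. These 38 tiles made up 13.2% of the 288 autosomal tiles below -2, while the windows held 0.43% of all autosomal tiles of that size.

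The depleted stretch of chromosome 4 ended inside the window, and it is divided here after its last tile below -2, a choice made after seeing the values. Its first 21 tiles, from 145052994 to 147185118, had a median ratio of -2.99 and a median input of 2.67, and the last 8, from 147195886 to 147375217, had -0.28 and 0.09. Within the depleted stretch 3 tiles stayed near the level of the other autosomes, at chr4:145052994-145054366 (-0.20), chr4:145425824-145427464 (-0.58) and chr4:146033954-146035305 (-0.07). On chromosome 2 the first 26 tiles had a median ratio of -2.40, with the highest of them at -1.56. The last 2 were enriched instead: chr2:177852395-177854104 had 1.06, 1.07 and 1.03 on the glucose intolerance arrays and 1.07, 1.04 and 0.82 on the normal tolerance arrays, and chr2:177875345-177877070 averaged 0.36. The tile just before the chromosome 2 window averaged -1.87, so the low ratios did not begin at its edge. The last tile before the chromosome 13 window, chr13:66541641-66543224, averaged -2.12, lower than any tile inside that window.

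**Figure D3:**
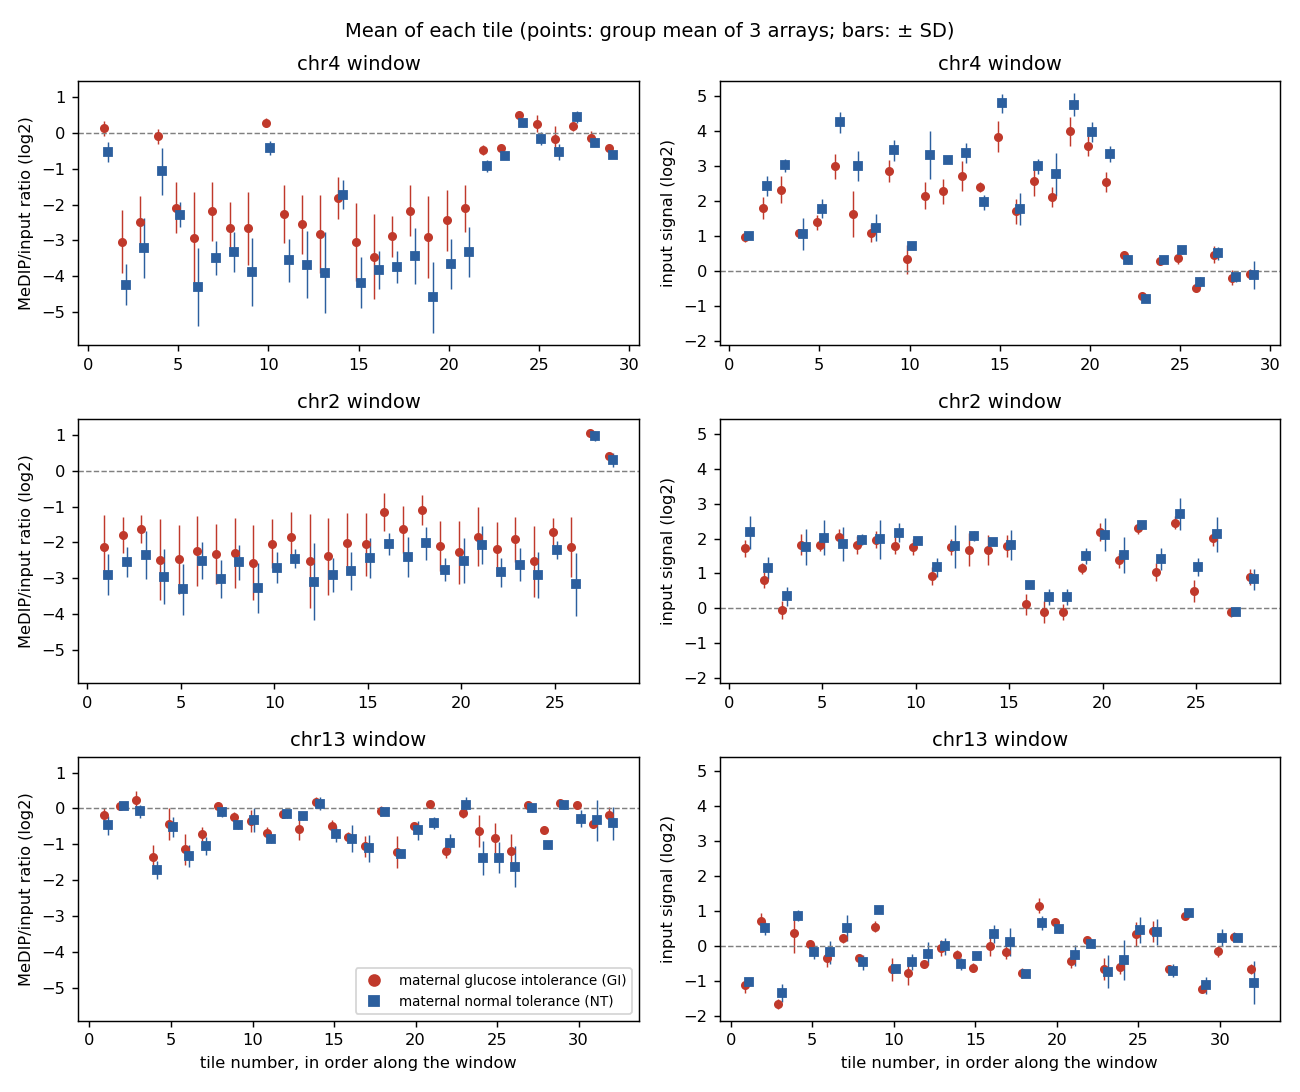
Mean MeDIP/input ratio (left) and mean input signal (right), both log2, of each tile in order along the 3 windows; circles are maternal glucose intolerance and squares maternal normal tolerance, each the mean of 3 arrays with ± SD. On chromosome 4 the low ratios and bright input end after tile 21, and on chromosome 2 the last 2 tiles lie above 0.

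The regions at the extremes show the range. A region is a run of at least 3 probes with input well above background on all 6 arrays and with starts at most 500 bp apart. The lowest ratio of all member regions was at chr4:147016118-147016582 (3 probes), with -4.34, -2.22 and -3.20 on the glucose intolerance arrays and -5.21, -3.77 and -5.33 on the normal tolerance arrays. It also had the brightest input, 4.39 log2 units above the array median. The lowest of chromosome 2 was chr2:175702375-175703740 (5 probes), with -3.58, -1.78 and -3.27, and -3.79, -2.51 and -3.74. In both, replicate 2 was the highest array of its group, and the groups overlapped. The highest region of chromosome 4, chr4:147314931-147315389 (3 probes), had 1.68, 1.19 and 1.81, and 1.56, 1.59 and 1.12. The highest of chromosome 2, chr2:177853610-177854104 (3 probes), averaged 1.08 ± 0.29 (SD, n = 6). The regions of chromosome 13 ran from -2.23 ± 0.68 at chr13:67476215-67476669 (3 probes) to 0.65 ± 0.19 at chr13:67005884-67006411 (3 probes). The brightest input of chromosome 13, at chr13:67653659-67654185 (3 probes, input 2.68), came with a ratio of 0.59, where the brightest regions of chromosomes 4 and 2 came with ratios of -4.01 and -2.74.

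The probe layout itself recurred in the chromosome 2 window. A tile was counted as recurrent where 5 consecutive probes had the same lengths and the same 4 spacings as in another tile of the array, a criterion that uses no signal. This held for 17 of 28 tiles on chromosome 2 (60.7%), 2 of 29 on chromosome 4 (6.90%) and 0 of the 30 tiles with at least 5 probes on chromosome 13, against 1.86% of 20319 on the other autosomes. Probe sequences were not used here, so whether the recurring probes are identical in sequence was not examined. Recurrent tiles of chromosome 2 had a median ratio of -2.41, and its other 11 tiles -2.25, so low ratios were not limited to the recurrent ones. On chromosome 4 the 27 tiles without a matching layout had a median of -2.71.

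In 8 sets, 17 tiles had the same layout from end to end, and the means of matching tiles lay close together. The tiles at chr2:175261035-175262477, chr2:176096936-176098378 and chr2:176420785-176422227 (7 probes each) averaged -2.51, -2.37 and -2.41. The pair at chr4:145849493-145851101 and chr4:146394849-146396457 (6 probes each) averaged -3.27 and -3.36. These means leave out dropped outlier spots, so matching tiles need not cover the same probes on every array. The SD between matching probes of a set on 1 array had a median of 0.159 log2 units over the 8 sets, with a range of 0.138 to 0.201. The SD of 1 probe between the 6 arrays was larger, at a median of 0.905, and the SD between the different probes of a tile was 1.12 to 1.61. By these medians the arrays differed more from each other than matching spots did within an array. Single matching probes could still differ: of 290 sets of matching probes on 1 array, 14 spanned more than 1 log2 unit, and the widest spanned 1.92. Matching tiles may not be independent of one another, yet the tile counts given here take each as its own tile. On chromosome 2 all 17 recurrent tiles had a mean ratio below -1 and 15 of them below -2. Of its 11 other tiles, 9 were below -1 and 6 below -2.

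**Figure D4:**
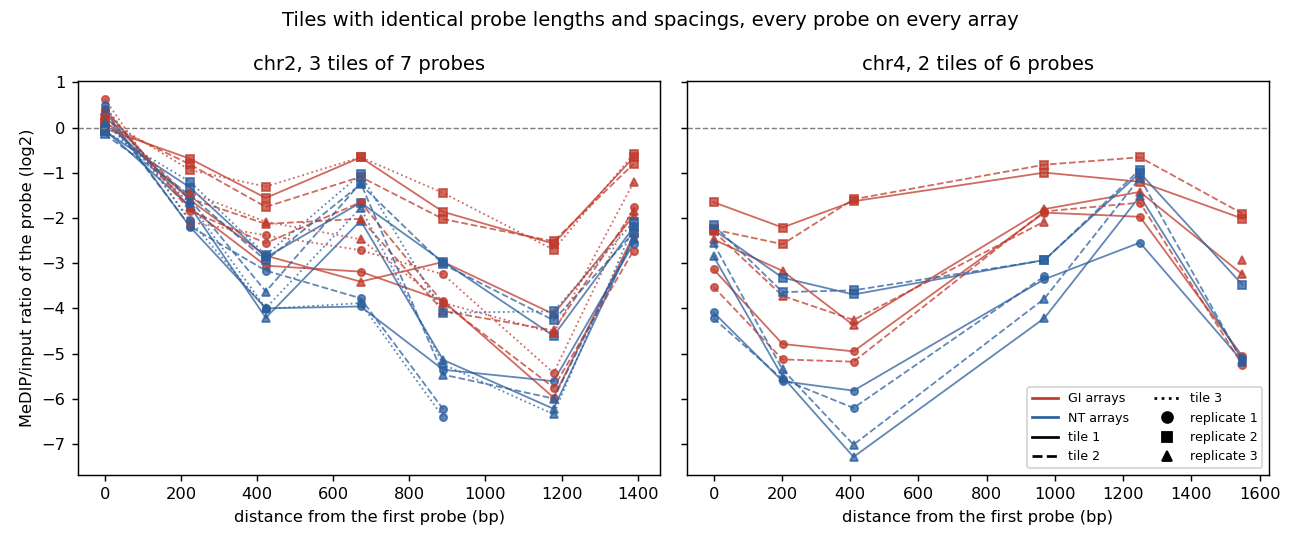
MeDIP/input ratio (y axis, log2) of every probe by distance from the first probe of its tile (x axis, bp) in 3 tiles of chromosome 2 and 2 of chromosome 4 with identical probe lengths and spacings; line style marks the tile, colour the group and marker the replicate. Lines of 1 array follow a similar course in the matching tiles, with single probes apart, and glucose intolerance replicate 2 is the highest array over most of the tile.

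The study's comparison, offspring of dams with glucose intolerance against normal tolerance, gave higher mean ratios with glucose intolerance over most of the chromosome 4 and 2 windows, with no call after adjustment. The chromosome 4 level averaged -1.68 ± 0.52 (SD, n = 3) in the glucose intolerance group and -2.38 ± 0.34 (SD, n = 3) in the other, 0.70 apart, and glucose intolerance replicate 1 lay below normal tolerance replicate 2. The chromosome 2 level was higher by 0.62 and the chromosome 13 level differed by -0.10, and the groups overlapped in both. Without glucose intolerance replicate 2 the difference was 0.41 on chromosome 4 and 0.23 on chromosome 2, and without normal tolerance replicate 1 it was 0.22 on chromosome 2. Over the probes with both channels well above background on all arrays it was 0.26 on chromosome 4 and turned to -0.11 on chromosome 2. The one window level whose groups did not overlap was the input of chromosome 4, at 1.42 ± 0.17 with glucose intolerance and 1.90 ± 0.12 with normal tolerance. The MeDIP level of the same window differed by 0.38 and overlapped. The input channel also differed between the groups outside the windows. Of the other autosomal input spots, 71.4%, 72.9% and 79.0% were well above background on the glucose intolerance arrays. On the normal tolerance arrays it was 92.7%, 87.3% and 85.7%. Input differences in the windows, also those of single regions and probes below, stand on this background, and their cause was not tested.

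Of the members, 507 had input well above background on all 6 arrays, and 497 of them had enough spots for the test, in 86 regions. A member probe or region was called at an adjusted p under 0.05 in limma, with the adjustment over all 113885 probes or 18562 regions tested. No member probe was called, where 0.000878% of all tested probes were, and no member region, where 0% of all tested regions were; the lowest adjusted p of limma was 0.103 among the probes and 0.219 among the regions. At an unadjusted p under 0.05, 94 of 497 member probes were higher with glucose intolerance, against a background of 10.4%, and 21 were lower, against 5.56%. Among regions 16 of 86 were higher, against 13.3%, and 2 were lower, against 2.51%. Of these, 14 of the 31 regions of chromosome 4 were higher and none lower, 0 of 26 on chromosome 2 passed in either direction, and 2 of 29 on chromosome 13 passed in each direction.

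The background was itself shifted, so the members are read against it. The median difference over all tested regions was 0.12, and 70.9% of them had a higher mean with glucose intolerance. In the windows 73 of 86 did, with median differences of 0.93 on chromosome 4, 0.37 on chromosome 2 and 0.10 on chromosome 13. Groups did not overlap, with the higher values in glucose intolerance, in 7 regions of chromosome 4, 0 of chromosome 2 and 3 of chromosome 13, together 10 of 86 against 17.5%, and with the lower values in 2, against 4.62%. The median over all regions moved to -0.03 with loess normalization, and 45.1% were then higher. Under loess the chromosome 4 median was 0.77, the chromosome 2 median 0.32 and the chromosome 13 median -0.08, so the direction on chromosome 13 depended on the scaling. With quantile normalization the medians were 0.58, 0.074 and -0.0098 on chromosomes 4, 2 and 13, against 0.035 over all regions, of which 56.1% were higher. Centring on the tested probes alone gave a median of 0.042 over all regions, with 10636 of 18562 higher. The medians on chromosomes 4, 2 and 13 were then 0.85, 0.29 and 0.023. With both channels required above background, 51 member regions were left and 37 of them were higher, against 70.7% of all regions. Their medians were 0.48 on chromosome 4, 0.12 on chromosome 2 and 0.083 on chromosome 13, against 0.11 over all, so the chromosome 2 median then lay at that of all regions. Without glucose intolerance replicate 2 the chromosome 2 median turned to -0.10, with 10 of 26 regions higher (68.8% of all tested regions were then higher), and the chromosome 4 median was 0.52.

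With the normexp background model limma called 19 of 86 member regions at an adjusted p under 0.05, 16 of them on chromosome 4 and all higher with glucose intolerance, in a table where 10% of all tested regions were called. In the authors' deposited table the same test called 7 member regions, all on chromosome 4 and all higher, where 5.71% of all regions were called. The 3 glucose intolerance arrays were scanned together, normal tolerance replicate 1 in another scan and replicates 2 and 3 in another again, with a lower gain of the red channel (359 V against 394 and 421 V). No scan held both groups, so scan and group cannot be told apart. With the scan as a random block 5 of 86 member regions had an unadjusted p under 0.05 in limma, near the 5.05% of all tested regions. All 5 were on chromosome 4, and none was called. Single arrays moved these counts when each was left out in turn. The fewest member regions with an unadjusted p under 0.05 in limma were 10, without normal tolerance replicate 3, against 8.44% of all tested regions. The most were 36, without normal tolerance replicate 2, against 14.7%. There were 11 without glucose intolerance replicate 2, against 9.33%, and 29 without glucose intolerance replicate 1, against 12.7%. Without normal tolerance replicate 1, limma called 19 of 482 member probes at an adjusted p under 0.05, 13 higher and 6 lower, in a table where 4.01% of all probes were called, and no region.

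**Figure D5:**
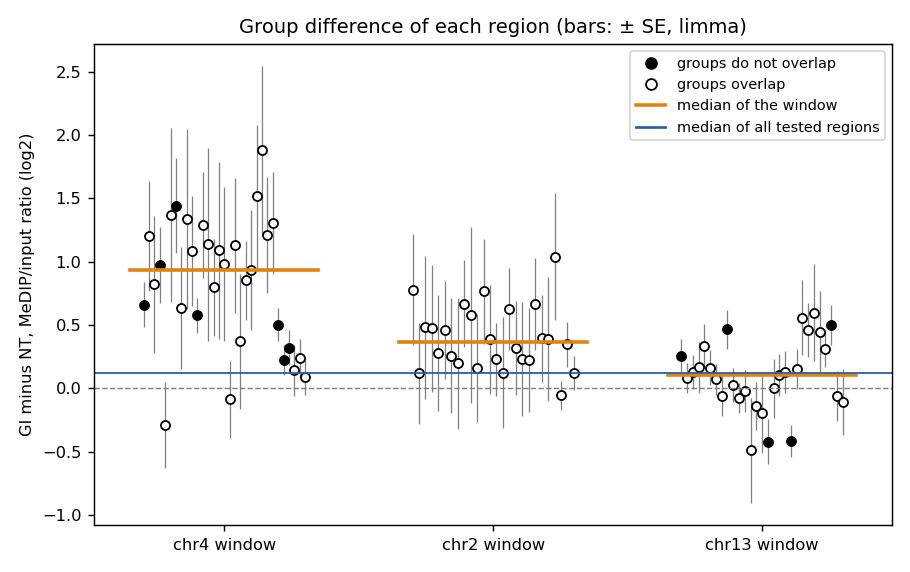
Difference between group means of the MeDIP/input ratio (y axis, log2, glucose intolerance minus normal tolerance) for the 86 tested regions in order along each window, with ± SE of limma; filled points have groups that do not overlap, orange bars are window medians and the blue line is the median of all tested regions. The window medians are 0.93, 0.37 and 0.10, against 0.12 for all regions.

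The regions with the lowest p were of different kinds. At chr4:146034165-146035305 (5 probes), in one of the tiles that were not depleted, the ratio was 0.68, 0.55 and 0.49 with glucose intolerance and 0.08, 0.13 and -0.21 with normal tolerance. All glucose intolerance arrays were above all normal tolerance arrays, by 0.58 ± 0.14 on average (SE, limma, adjusted p = 0.219). At chr4:145695577-145696036 (3 probes), in the depleted stretch, it was -2.48, -0.90 and -1.84, and -3.19, -2.80 and -3.56. The groups again did not overlap and differed by 1.44 ± 0.37, but the MeDIP signal differed by 0.00 and the input by -1.31, and 7 of 9 and 8 of 9 MeDIP spots were well above background. At chr4:147195886-147196626 (4 probes), the first tile after the depleted stretch, the values were -0.41, -0.16 and -0.13, and -0.78, -0.63 and -0.80, a difference of 0.50 ± 0.13 with all MeDIP spots above background.

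On chromosome 2 the lowest p was at chr2:177812846-177814338 (7 probes), with -2.79, -1.20 and -2.42 against -4.19, -2.59 and -2.74. Its groups overlapped, and its difference of 1.04 ± 0.50 had an adjusted p of 0.35 in limma. On chromosome 13 differences went both ways. At chr13:67855579-67856933 (7 probes) the ratio was -0.62, -0.36 and -0.54 with glucose intolerance and -0.78, -0.95 and -1.29 with normal tolerance, higher by 0.50 ± 0.16. At chr13:67626785-67627480 (4 probes) it was -1.38, -1.32 and -1.53, and -1.15, -0.93 and -0.90, a difference of -0.42 ± 0.13, and at chr13:67521879-67522326 (3 probes) it was 0.10, -0.15 and -0.03, and 0.76, 0.17 and 0.26. In each of these 3 the groups did not overlap, and no adjusted p in limma was under 0.239.

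Among single probes the lowest adjusted p was at chr4:145052994-145053050, in the first tile of that window. Its ratio was 0.31, 0.53 and 0.12 with glucose intolerance and -1.54, -1.26 and -1.89 with normal tolerance, a difference of 1.88 ± 0.24 (SE, limma, adjusted p = 0.103). The MeDIP signal differed by -0.03 and the input by -1.78, so most of the difference lay in the input channel. Channels and ratio were each centred on their own median, so channel differences need not add up to the ratio difference. The probe at chr4:145427405-145427464 had -0.70, 0.35 and 0.01, and -3.07 and -4.53, with normal tolerance replicate 2 dropped as an outlier spot. Its groups did not overlap, and its input differed by -2.69 and its MeDIP signal by 0.83. The probe at chr4:147016535-147016582 had -3.06, -1.49 and -2.27, and -4.80 and -5.55, again without normal tolerance replicate 2. There the input differed by 0.16 and the MeDIP signal by 2.89. The 3 lowest p in the other direction were all on chromosome 13, with differences of -1.05, -1.07 and -1.02 at starts 67032692, 67522074 and 67627422, and adjusted p of 0.137, 0.14 and 0.143 in limma.

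Single arrays stood at the extremes of many tiles. Glucose intolerance replicate 2 was the highest of the 6 arrays in 25 of 29 tiles on chromosome 4 and 27 of 28 on chromosome 2, but in 10 of 32 on chromosome 13, against 25.6% of the other autosomal tiles. Normal tolerance replicate 1 was the lowest in 13, 25 and 19 of them, against 38.7%, and on chromosome 4 normal tolerance replicate 3 was the lowest in 11. These counts include the 17 recurrent tiles of chromosome 2, which all had that highest and that lowest array. The share of chromosome 2 probes with a ratio of -2 or less was 18.3% on glucose intolerance replicate 2 and between 47.3% and 66.7% on the other 5 arrays. The difference between tile means was above 1 in 12 of 29 tiles on chromosome 4, 1 of 28 on chromosome 2 and 0 of 32 on chromosome 13, against 0.525% elsewhere. Matching tiles repeated these array differences: in the 3 matching tiles of chromosome 2 glucose intolerance replicate 2 read -1.15, -1.27 and -1.06, and normal tolerance replicate 1 read -3.33, -3.01 and -3.17. In the tiles starting at 176096936 and 176420785, normal tolerance replicate 1 lacked the outlier spots 1179 and 1389 bp from the first probe. In the tile at 175261035 those spots read -5.61 and -2.57. What set replicate 2 of the glucose intolerance group apart was not tested.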

How the data were processed

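DNA of 6 pancreas samples was hybridised to 2-colour Agilent arrays, with MeDIP DNA in Cy5 and input in Cy3 per the labels' protocols. Spot intensity values were background-subtracted and linearly dye-normalized with Feature Extraction 11.0.1.1, per the file headers. For 96.7% of spots the deposited log10 ratio, used as a check, differed from the ratio computed here by at most 0.01 log2 units. A log2 table of the authors was used as an alternative, whose steps and centring are not given in the sources used here (array medians 0.027 to 0.038). It correlated with the scanner ratios at r = 0.809 to 0.875 across probes.

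Ratios of processed intensity were taken as log2 Cy5 over Cy3 and centred on each array's median, without loess or quantile normalization. Single channels were centred the same way, each on its own median, so their group differences need not add up to that of the ratio. Outlier spots (2.03% of member spots) were dropped, and no member spot was saturated. Window levels used all other member spots. Tests used probes with input well above background on all 6 arrays and at least 2 values per group, or regions of them (limma 3.58.1, R 4.3.3, Benjamini-Hochberg over the whole table). The number of arrays limits the precision. On simulated data over 115911 probes, 86% of probes changed by 3 log2 units and 34% of those changed by 1.5 were recovered for the comparison of glucose intolerance with normal tolerance. Members, tests and lists were chosen with earlier results of these data known, and the tile and layout rules after seeing the probe positions. Text regions were, per window, up to 3 of lowest p per direction, the 2 highest and 2 lowest in ratio and the 2 brightest in input; text probes were the 3 of lowest p per direction. Same-numbered replicates of the groups deviated together at r = 0.567, 0.536 and 0.041, and were not treated as pairs. The normexp alternative used median spot signals, with an offset of 50. Alternatives covered background correction, normalization, filters, region rules, variance, scan and replicate blocks, and leaving out each array.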

Additional observations from a re-analysis of the deposited data

How the results depend on the processing

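The windows on chromosomes 4 and 2 stayed below the other autosomes in both groups under every level setting tried. Calls did not stay. With normexp background correction limma called 64 of 497 member probes, where 5.67% of all tested probes were called. In the authors' deposited table it called 47, where 5.14% were, and with quantile normalization 12, where 1.58% were. With both channels required above background it called 3 of 339, where 0.227% were, and with a trended robust variance 6 of 497, where 0.78% were. With 1 array left out it called 0 to 19, where 0% to 4.01% were. Of member regions it called 19 with normexp, where 10% of all were, 7 in the authors' table, where 5.71% were, and 0 with 1 array left out, where 0% were. At an unadjusted p under 0.05, where 115 member probes and 18 regions passed, 208 and 44 did with normexp, 185 and 31 in the authors' table, 47 and 5 with the scan as a random block, 58 to 142 and 10 to 36 with 1 array left out, and 11 regions with both channels above background and 9 with the trended variance. In a fit with a replicate block 89 probes and 26 regions were called, where 4.06% and 4.63% of all were. At the unadjusted p of limma 201 and 47 passed, against 22.2% and 25.8%. The labels do not say what same-numbered samples share. Their deviations from the group means correlated at r = 0.567, 0.536 and 0.041 over regions. The highest r with another number was -0.210, 0.172 and 0.021, so a dependence between same-numbered samples is not settled here. Levels of the chromosome 4 ratio were -0.69 and -1.07 with glucose intolerance under normexp and in the authors' table, and with normal tolerance -1.32 and -1.73, -1.77 with both channels above background, -2.02 as a mean over probes and -1.84 without the brightest input; with 1 array left out they ran from -1.98 to -1.48 and from -2.56 to -2.22. The chromosome 2 ratio was -0.67 with glucose intolerance under normexp, and with normal tolerance -1.13 under normexp, -1.65 in the authors' table and -1.31 with both channels above background; leaving out arrays gave -2.11 to -1.44 and -2.57 to -1.95. The chromosome 13 ratio ran from -0.46 to -0.28 and from -0.37 to -0.19 with 1 array left out. The group difference ran from 0.41 to 0.90 on chromosome 4, 0.22 to 0.91 on chromosome 2 and -0.20 to 0.01 on chromosome 13 with 1 array left out, and was 0.26 on chromosome 4 and -0.11 on chromosome 2 with both channels above background. Input was 1.33 (chromosome 4) and 0.72 (chromosome 2) over probes with input above background, and 1.36 and 0.93 against the flanks; MeDIP was -0.79, -1.47 and -0.67 (chromosomes 4, 2 and 13) over those probes, and -0.34 for chromosome 13 against the flanks. With 1 array left out, input ran from 1.59 to 1.74, 1.16 to 1.29 and -0.22 to -0.16, and MeDIP from -0.38 to -0.09, -1.003 to -0.69 and -0.55 to -0.52, on chromosomes 4, 2 and 13. The difference of 12 regions turned sign somewhere. It was 0.13 under normexp and 0.20 with no filter on dim spots at chr4 145650471, 0.055 with outlier spots kept at chr4 146442047, -0.067 under loess and -0.18 with a gap of 1000 bp at chr4 147314931, 0.077 with no filter and 0.12 with that gap at chr2 177852395, and -0.10 under quantile normalization at chr2 175929777. On chromosome 13 it was 0.036 with no filter at 67521879, 0.039 with no filter at 67476215, -0.080 under loess at 67005884, -0.14 under loess, -0.21 with no filter and -0.0043 with outlier spots kept at 67653659, and 0.050 with no filter at 67500219. With 1 array left out it ran from -0.39 to 0.20 at chr4 146442047, -0.012 to 0.33 at chr4 147314931, -0.078 to 0.89 at chr2 175702375, -0.15 to 1.1 at chr2 176265474, -0.34 to 0.64 at chr2 175929777 and -0.29 to 0.070 at chr13 67500219. The 6 probes kept their direction in all 103 fits run. The cause of these changes was not tested.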
